A study of Mus musculus with 12 samples.

Results

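The liver moves bile salts, conjugates, sterols, organic ions and drugs across its membranes with ATP-binding cassette (ABC) pumps and solute carriers (SLC), and 71 genes of these families are described here in 12 mouse libraries. The members were chosen by symbol from the 17311 genes of the deposited table of RPM values: every name that starts with Abca, Abcb, Abcc or Abcg and a digit, with Slco and a digit, or with Slc22a, Slc10a or Slc47a. 1 further name was left out because it carries the pseudogene suffix -ps. The raw count table holds 91 genes with such names, and the 20 that are not in the RPM table had at most 11 counts over the 12 libraries. By role the members comprise 7 genes of sinusoidal uptake, 9 of canalicular export, 7 of basolateral efflux, 15 ABCA and ABCG genes of lipid transport, 14 SLC22 carriers, 7 organelle ABCB or sulphonylurea receptor genes, 7 other SLCO genes and 5 other SLC10 genes.

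As background, a hepatocyte takes up bile salts and other organic ions from sinusoidal blood through carriers such as Slc10a1 and the Slco1 family. It secretes bile across the canalicular membrane, where Abcb11 pumps bile salts, Abcb4 moves phosphatidylcholine, the Abcg5 and Abcg8 pair exports sterols and Abcc2 exports conjugates such as bilirubin glucuronide. Abcc3 and Abcc4 sit on the basolateral side and return bile salts and conjugates to blood. Many of these genes are known targets of nuclear receptors, among them Nr1h4 (FXR), Nr1i2 (PXR), Nr1i3 (CAR) and Nr1h3 (LXR).

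Polyadenylated RNA was sequenced from a stranded kit. Hepatocytes were purified on a Percoll gradient from mice whose genotype label names the alleles Lats1tm1.1Jfm/RjoJ and Lats2tm1.1Jfm/RjoJ and whose titles say WT. The sources used here do not say whether a Cre was present. Of these 6 libraries, 3 came from untreated mice and 3, called peritumoral, from mice with tumours in the liver. Those mice were 8 weeks old at a hydrodynamic injection of SB11 (1 µg, a transposase), myc-NICD (20 µg, the active Notch domain) and myr-ha-Akt (4 µg), and tumours grew for 8 weeks. The 6 other libraries came from CD-1 IGS mice: 2 controls, 2 taken 24 h and 2 taken 48 h after 1 injection of thioacetamide (TAA), a toxin that hepatocytes around the central vein activate. The sample labels call these hepatocytes as well, the series design calls them livers, and they are called livers here. Every label gives an age of 8 weeks. For the peritumoral mice this equals the stated age at injection, before the 8 weeks of tumour growth. Their age at harvest is not on the labels. Any difference in age from the untreated mice cannot be told apart from the tumours. Whether replicate libraries stem from different animals is not on the labels, and the p-values therefore speak only for library-to-library spread, which could be technical.

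Levels are read counts scaled to library size (CPM) with TMM factors within each stock. Log2 fold changes (± SE) came from edgeR's quasi-likelihood model, and p-values were adjusted by Benjamini-Hochberg over all genes tested, with 0.05 as the threshold. Library totals ran from 16228747 to 18522324 counts in hepatocytes and from 9640845 to 13692235 in livers, and 3 counts, taken as the floor of detection for counting error only, correspond to 0.162 to 0.311 RPM. Some libraries stand apart. Peritumoral replicate 2 and all 6 livers held Xist (196 to 527 RPM) and no Ddx3y count, whereas the other 5 hepatocyte libraries held Ddx3y (59.6 to 75.5 RPM) and Xist at no more than 0.183 RPM. Whether peritumoral replicate 2 came from an animal of the other sex or was mixed up was not tested, and its values are given under its label. The summed level of 8 biliary markers was 7881 CPM in peritumoral replicate 2, against 1104 and 798 CPM in the other peritumoral libraries and 51.8 to 93.8 CPM in untreated hepatocytes. Untreated replicate 3 held a higher summed level of the 71 transporter genes (9301 CPM) than untreated replicates 1 and 2 (5299 and 4786 CPM).

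Start regions of 4 bile salt or organic anion transporters are shown because their transcripts were among the most abundant of the family, and because each holds AGGTCA, the core element that many nuclear receptors bind. The RefSeq promoter table (GRCm38.p6) gave a window for 55 of the 71 genes. Each sequence is the 250 bases before a start, and capitals mark AGGTCA or its reverse complement, searched on both strands. The Slc10a1 window belongs to a start that lies inside the annotated gene. None of the sequences shown overlaps an annotated exon. Abcb11 lies on the minus strand at chr2:69342617-69342866, Slco1b2 on the plus strand at chr6:141629268-141629517, Slco1a1 on the minus strand at chr6:141946963-141947212 and Slc10a1 on the minus strand at chr12:80968080-80968329.
Abcb11: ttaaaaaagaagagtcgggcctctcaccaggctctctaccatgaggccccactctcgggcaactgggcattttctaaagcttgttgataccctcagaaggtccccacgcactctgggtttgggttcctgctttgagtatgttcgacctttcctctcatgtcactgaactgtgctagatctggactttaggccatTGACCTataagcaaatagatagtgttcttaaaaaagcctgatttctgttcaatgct
Slco1b2: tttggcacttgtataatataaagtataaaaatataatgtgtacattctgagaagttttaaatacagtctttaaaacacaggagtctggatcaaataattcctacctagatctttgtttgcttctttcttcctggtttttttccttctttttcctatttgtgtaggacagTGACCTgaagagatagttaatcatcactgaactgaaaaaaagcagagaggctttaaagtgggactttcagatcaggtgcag
Slco1a1: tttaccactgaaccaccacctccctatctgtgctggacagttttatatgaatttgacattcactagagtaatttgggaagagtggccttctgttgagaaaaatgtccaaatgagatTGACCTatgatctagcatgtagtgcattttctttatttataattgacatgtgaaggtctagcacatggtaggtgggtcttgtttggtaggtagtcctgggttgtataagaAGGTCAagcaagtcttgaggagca
Slc10a1: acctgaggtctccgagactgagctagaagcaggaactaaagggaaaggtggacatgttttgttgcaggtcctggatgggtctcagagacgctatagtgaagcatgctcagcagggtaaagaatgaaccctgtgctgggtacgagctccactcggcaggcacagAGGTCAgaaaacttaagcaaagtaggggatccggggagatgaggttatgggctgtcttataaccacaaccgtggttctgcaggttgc
The fifth sequence is the 109 bases between the opposed starts of Abcg5 (minus strand) and Abcg8 (plus strand), chr17:84683012-84683120, shown on the plus strand because this pair shares one start region. It holds no AGGTCA. The Abcg8 start used here also lies inside its annotated gene (chr17:84676302-84700333).
Abcg5 to Abcg8: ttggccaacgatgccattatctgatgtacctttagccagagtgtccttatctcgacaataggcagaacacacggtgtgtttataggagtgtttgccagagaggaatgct

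AGGTCA occurred in 16.3% of all 32851 windows of 300 bases, from 250 before to 50 after a start, and in 18.5% of the 65 transporter windows. Counting a gene once for any of its windows, AGGTCA was in 10 of the 55 transporter genes (18.2%). By role it was found in 3 of 5 uptake genes with a window (Slc10a1, Slco1a1, Slco1b2), 3 of 8 canalicular genes (Abcb11, Abcc2, Abcg2) and 0 of 12 ABCA and ABCG genes. An exact inverted repeat of this element with 1 base between (AGGTCANTGACCT) was in 0.00913% of all windows and in none of the transporter windows. Repeats with a mismatch were not searched, and the Abcb11 sequence above holds aggccatTGACCT, which differs from this repeat by 1 letter. The core TGACNNNGC, which goes with Nfe2l2 (NRF2), was in 12.4% of all windows and in 13.8% of the transporter windows, and the E box CACGTG in 7.15% and 9.23%. These matches overlap where motifs share letters, and they describe the windows only.

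In untreated hepatocytes the transporters with the highest level per kb of exon were Slc10a1 (171 CPM per kb, libraries from 105 to 285), Slco1b2 (164), Slco1a1 (159) and Abcb11 (113). The ranges of these 4 genes over the 3 libraries overlapped. Abcc2 stood at 84.0 CPM per kb. Control livers had the same 2 genes at the top, Slc10a1 (378 CPM per kb) and Slco1b2 (275), followed by Slc22a26 (159) and Abcb11 (151). Slc22a26, an organic anion carrier of a gene cluster on chromosome 19, was nearly absent from untreated hepatocytes. At 24 h after TAA the levels were closer together, with Slco1b2 (48.1), the lipid transporter Abca3 (34.6), Abcc3 (32.6) and Slc10a1 (31.6) among the highest. Of the 71 genes, 39 reached a mean of 10 CPM in untreated hepatocytes and 47 in peritumoral hepatocytes.

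**Figure D1:**
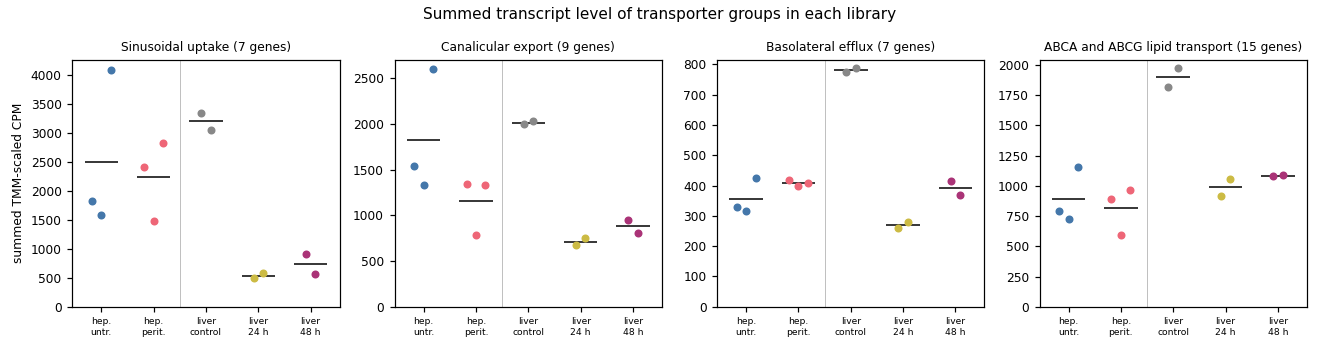
Summed TMM-scaled CPM of 4 transporter groups (linear axes from 0), with 1 point per library and a line at the mean of untreated (untr.) and peritumoral (perit.) hepatocytes (hep.) and of control livers and livers 24 h and 48 h after TAA. Uptake sums of the 4 TAA libraries lie between 503 and 918 CPM, below both control livers (3356 and 3055 CPM), while the peritumoral uptake sums lie within the range of the untreated ones or just below it.

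Sinusoidal uptake fell in the injured livers and did not pass the test in peritumoral hepatocytes. At 24 h after TAA 6 of 7 uptake genes fell, where 20.7% of all genes tested were lower, and at 48 h 5 of 7 fell, where 24.0% were lower. The median log2 change was -2.58 at 24 h and -2.33 at 48 h, beside 0.02 and -0.03 over all genes tested. In peritumoral hepatocytes 0 of 7 passed edgeR's test, where 18.7% of all genes tested were higher and 9.85% lower. Of the 7, 0 had an unadjusted p under 0.05, DESeq2 called 0, and limma on the RPM values called 1 higher. With 7 genes, a count of 0 does not show that they were unchanged or differ from all genes.

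Slc10a1 takes up bile salts with sodium. Its level was 892 and 769.9 CPM in control livers, 60.8 and 78.0 CPM at 24 h and 181 and 109 CPM at 48 h. Every TAA library lay below both controls, and both 48 h libraries lay above both 24 h libraries. Slc10a1 fell by 3.58 ± 0.29 on the log2 scale at 24 h (adjusted p = 0.000527) and by 2.52 ± 0.276 at 48 h (adjusted p = 0.000664). In hepatocytes its level was 269.8, 231 and 627 CPM without and 382, 161 and 469.8 CPM with tumours, which overlapped (log2 change -0.16 ± 0.526, adjusted p = 0.853).

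Slco1b2, the main liver-type organic anion carrier of the mouse, stood at 1323 and 1391 CPM in controls, 220.0 and 254 CPM at 24 h and 286 and 242 CPM at 48 h. It fell by 2.52 ± 0.168 at 24 h (adjusted p = 0.000363) and by 2.36 ± 0.167 at 48 h (adjusted p = 0.00022). Neither TAA time overlapped the controls. In hepatocytes the untreated values were 555, 483 and 1392 CPM and the peritumoral ones 1053, 632 and 1242 CPM, all within the untreated range (log2 change 0.27 ± 0.497, adjusted p = 0.723).

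Slco1a1, an organic anion carrier known to be higher in male mouse liver, spread widely between libraries. It stood at 384 and 191 CPM in controls, 9.32 and 30.4 CPM at 24 h and 90.8 and 23.3 CPM at 48 h. It fell by 3.85 ± 0.816 at 24 h (adjusted p = 0.0104) and by 2.34 ± 0.76 at 48 h (adjusted p = 0.0396). The 24 h call was lost without 24 h replicate 1 (adjusted p = 0.0632), and the 48 h call without 48 h replicate 2 or control replicate 1 (0.135 to 0.137). DESeq2 did not make the 48 h call either (adjusted p = 0.0591). Untreated hepatocytes held 556, 471 and 1494 CPM and peritumoral ones 423, 111 and 558 CPM, which overlapped (-1.21 ± 0.691, adjusted p = 0.234). The lowest value was that of peritumoral replicate 2, the library with Xist.

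Slco1a4, a related carrier known to be higher in female mouse liver, showed the opposite library: peritumoral replicate 2 had 279 CPM, beside 34.0 and 116 CPM in the other 2 peritumoral libraries and 81.1 to 103 CPM in untreated ones. In livers it stood at 176 and 184 CPM in controls, 24.8 and 24.9 CPM at 24 h and 159 and 67.7 CPM at 48 h. It fell by 2.85 ± 0.376 at 24 h (adjusted p = 0.00185). At 48 h its level did not differ from controls past the threshold (-0.67 ± 0.349, adjusted p = 0.156), and it was higher at 48 h than at 24 h (2.19 ± 0.367, adjusted p = 0.0236).

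Slco2b1, another organic anion carrier, fell from 302 and 231 CPM to 33.4 and 55.9 CPM at 24 h (log2 change -2.58 ± 0.295, adjusted p = 0.00117) and stood at 82.0 and 60.6 CPM at 48 h (-1.90 ± 0.287, adjusted p = 0.00211). Slc22a7, an organic anion carrier, did not pass at either time (-0.09 ± 0.556 and 0.13 ± 0.555), with 28.4 and 43.6 CPM in controls and 16.2 to 63.1 CPM after TAA.

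**Figure D2:**
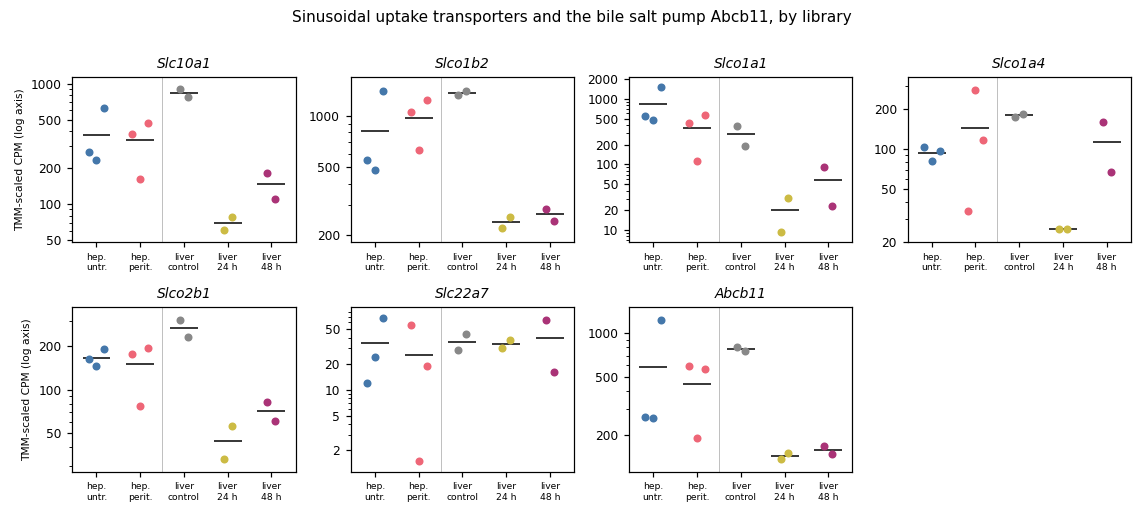
TMM-scaled CPM (log axes) of 6 uptake genes and of Abcb11 in each library (points) with group means (lines), for untreated (untr.) and peritumoral (perit.) hepatocytes (hep.), control livers and livers 24 h and 48 h after TAA. Slc10a1, Slco1b2, Slco2b1 and Abcb11 lie lower in all 4 TAA libraries than in both controls, and the uptake genes shown do not separate the 2 hepatocyte groups.

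Canalicular genes fell in part in both settings. In peritumoral hepatocytes 3 of 9 fell (Abcc2, Abcg5, Abcg8) and 2 rose (Abcb1b, Slc47a1), where 9.85% of all genes tested were lower and 18.7% higher. After TAA 6 of 9 fell and 1 rose at 24 h (20.7% lower and 21.1% higher among all genes), and 5 fell and 1 rose at 48 h (24.0% and 25.1%), and Abcb11 and Abcb4 were among those that fell at both times. On unscaled RPM values limma called 4 of 9 lower and 1 higher at 24 h, and 3 lower and 4 higher at 48 h.

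Abcb11, the bile salt export pump, stood at 797 and 753 CPM in control livers, 136 and 149.9 CPM at 24 h and 168 and 148 CPM at 48 h. It fell by 2.44 ± 0.154 at 24 h (adjusted p = 0.000319) and by 2.30 ± 0.153 at 48 h (adjusted p = 0.000201), with no overlap with the controls. In untreated hepatocytes it stood at 263 and 259.5 CPM in replicates 1 and 2 and at 1228 CPM in replicate 3, a range that held the peritumoral values of 591, 191 and 563 CPM. Its peritumoral change was -0.38 ± 0.733 (adjusted p = 0.732), and it turned to 0.77 without untreated replicate 3 and to 0.06 without peritumoral replicate 2. In 1 fit of all 12 libraries the 24 h fall of Abcb11 was 2.32 with an adjusted p of 0.0509.

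Abcc2, the pump for bilirubin glucuronide and other conjugates, fell in peritumoral hepatocytes and at 24 h. It stood at 837, 674 and 639 CPM in untreated and 262, 311 and 328 CPM in peritumoral hepatocytes, with no overlap. It fell by 1.25 ± 0.239 (adjusted p = 0.0127), a call lost without untreated replicate 1 or 2 (adjusted p from 0.0537 to 0.0766) and at an adjusted p of 0.0538 by limma on log2(RPM + 0.5). In livers Abcc2 fell by 0.68 ± 0.132 at 24 h (adjusted p = 0.00756), from 432 and 429.9 CPM to 263 and 274 CPM, but limma on log2(RPM + 0.5) gave -0.17 (adjusted p = 0.148). At 48 h it stood at 364 and 365 CPM (-0.24 ± 0.131, adjusted p = 0.17), and the direction turns with the scaling: 0.47 on log2(RPM + 0.5).

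The sterol exporter pair fell in every comparison with an untreated group. Abcg8 stood at 65.4, 67.8 and 127 CPM in untreated and 35.1, 33.9 and 26.2 CPM in peritumoral hepatocytes (log2 change -1.45 ± 0.299, adjusted p = 0.0161). It went from 108 and 113 CPM in control livers to 50.6 and 46.9 CPM at 24 h (-1.18 ± 0.145, adjusted p = 0.00144) and 19.3 and 15.2 CPM at 48 h (-2.68 ± 0.154, adjusted p = 0.000138). No library of a treated group overlapped its untreated group. Abcg5, its partner across the 109 bases shown above, fell by 1.09 ± 0.225 in peritumoral hepatocytes (adjusted p = 0.016), by 1.01 ± 0.203 at 24 h (adjusted p = 0.00868) and by 1.34 ± 0.205 at 48 h (adjusted p = 0.00225). Its peritumoral call was lost without untreated replicate 1 (adjusted p = 0.055) and its 24 h call without 24 h replicate 1 (adjusted p = 0.0522). Between the 2 times Abcg8 fell further (-1.50 ± 0.15, adjusted p = 0.00939), and Abcg5 did not pass (-0.33 ± 0.203, adjusted p = 0.348). Limma on RPM values did not call the Abcg5 falls at either TAA time.

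Abcb4, the phosphatidylcholine floppase, fell by 1.83 ± 0.259 at 24 h (adjusted p = 0.00243) and by 1.21 ± 0.255 at 48 h (adjusted p = 0.00773), from 323 and 379 CPM in controls to 85.7 and 112 CPM and then 187 and 117 CPM. The 48 h call was lost in 1 fit of all 12 libraries (adjusted p = 0.121) and by limma on log2(RPM + 0.5) (-0.53, adjusted p = 0.17). In peritumoral hepatocytes Abcb4 did not pass (-0.48 ± 0.48, adjusted p = 0.491). Slc47a1, which extrudes organic cations, moved in opposite directions. It rose in peritumoral hepatocytes from 47.8, 45.7 and 61.5 CPM to 95.8, 68.5 and 151 CPM (1.02 ± 0.306, adjusted p = 0.0466). It fell after TAA from 181 and 187 CPM to 32 and 47.3 CPM (-2.21 ± 0.2, adjusted p = 0.000617) and 67.8 and 61.9 CPM (-1.51 ± 0.195, adjusted p = 0.00118). The peritumoral call was lost without any 1 of 5 libraries, all but peritumoral replicate 2 (adjusted p from 0.071 to 0.156). The difference between the peritumoral and the 24 h change was 3.14 ± 0.442 (adjusted p = 0.0051), and it passed with each library left out.

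Abcb1b and Abcb1a encode the multidrug pump P-glycoprotein and are similar genes, so they may share some reads. Abcb1b was close to the floor in control livers (0.206 and 0.2 CPM) and rose to 2.72 and 10.4 CPM at 24 h and to 15.4 and 6.13 CPM at 48 h. The log2 changes were 4.96 ± 1.08 (adjusted p = 0.0115) and 5.65 ± 1.05 (adjusted p = 0.00472). The 24 h call was lost without either control library (adjusted p from 0.0628 to 0.0669). In hepatocytes Abcb1b rose from 0.807, 0.638 and 0.471 CPM to 4.17, 26.8 and 2.48 CPM (4.10 ± 1.0, adjusted p = 0.026), and the call was lost without any 1 of the untreated libraries (adjusted p from 0.0783 to 0.0943) and by limma on log2(RPM + 0.5) (2.85, adjusted p = 0.0929). The highest value again was that of peritumoral replicate 2. Abcb1a stood at 5.19, 3.48 and 2.20 CPM in untreated and 5.87, 9.98 and 11.8 CPM in peritumoral hepatocytes, which did not overlap. Its change lay at the threshold (1.34 ± 0.411, adjusted p = 0.0502), and DESeq2 (adjusted p = 0.0171), the joint fit (0.0243), a filter of 50 counts (0.0483) and the fit without peritumoral replicate 1 (0.0391) called it. It did not pass at 24 h (0.66) or 48 h (1.00). Abcg2, the breast cancer resistance pump, did not pass either (-0.63, -0.21 and 0.26, the 24 h value turning to 0.30 on log2(RPM + 0.5)).

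Basolateral efflux genes split. Abcc1 rose in all 3 settings, Abcc5 and Abcc12 rose at both TAA times and Abcc4 rose at 48 h, whereas Abcc3 and Abcc6 fell at both TAA times. In peritumoral hepatocytes 1 of 6 tested genes rose, a share near the 18.7% of all genes. Abcc12 missed the count filter there, and it was lower in every peritumoral library than in every untreated one. At 24 h 3 of 7 rose and 2 fell, beside 21.1% higher and 20.7% lower among all genes, and at 48 h 4 rose and 2 fell, beside 25.1% and 24.0%. The summed level of the group nonetheless was lower after TAA (261 to 416 CPM) than in controls (775 and 789 CPM), since Abcc3 and Abcc6 make up most of it.

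Abcc1, a pump for glutathione conjugates that is low in resting hepatocytes, stood at 3, 2.15 and 1.57 CPM in untreated and 9.62, 28.5 and 17.4 CPM in peritumoral hepatocytes (3.04 ± 0.469, adjusted p = 0.00757). In livers it went from 1.44 and 0.801 CPM to 6.83 and 5.29 CPM at 24 h (2.43 ± 0.351, adjusted p = 0.00262) and 12.2 and 9.86 CPM at 48 h (3.29 ± 0.345, adjusted p = 0.000579). None of these groups overlapped its untreated group, and each call passed with every library left out in turn.

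Abcc4, which returns bile salts and cyclic nucleotides to blood, passed the test after TAA at 48 h but not at 24 h. It stood at 3.40 and 2.30 CPM in controls, 5.29 and 3.78 CPM at 24 h, and 17.5 and 15.5 CPM at 48 h. Both 24 h values lay above both controls. The 48 h change was 2.53 ± 0.28 (adjusted p = 0.000691) and the 24 h change 0.67 ± 0.293 (adjusted p = 0.108). The 2 times differed by 1.86 ± 0.259 (adjusted p = 0.0158). In hepatocytes the Abcc4 values of 8.19, 5.80 and 22.2 CPM and of 6.71, 23.4 and 19.6 CPM overlapped (0.47 ± 0.624, adjusted p = 0.615).

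Abcc5, a cyclic nucleotide pump, rose from 2.47 and 4.01 CPM to 11.3 and 13.3 CPM at 24 h (1.92 ± 0.257, adjusted p = 0.00196) and 15.5 and 17.4 CPM at 48 h (2.34 ± 0.256, adjusted p = 0.000659). Abcc12 was not tested by the main fit in hepatocytes. It stood at 1.73, 1.86 and 0.707 CPM in untreated and 0.302, 0.124 and 0.0577 CPM in peritumoral hepatocytes, from 71 and 9 summed counts. DESeq2, the joint fit, the fit without a count filter and limma on RPM values each called 1 basolateral gene lower there (lowest log2 change -3.19 by DESeq2). In livers Abcc12 had 0 counts in both control libraries. It was at least 4.44-fold higher at 24 h and at least 5.60-fold higher at 48 h against a floor of 3 counts over the control group. Its 24 h call was lost without 24 h replicate 1 (adjusted p = 0.056).

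Abcc3, the most abundant of the group, went from 441 and 449 CPM to 183 and 189 CPM at 24 h (-1.26 ± 0.15, adjusted p = 0.00131) and 289.8 and 242 CPM at 48 h (-0.74 ± 0.148, adjusted p = 0.00632). The 48 h call was lost without 48 h replicate 2 (adjusted p = 0.0516), and limma on log2(RPM + 0.5) gave -0.04 (adjusted p = 0.827). In hepatocytes Abcc3 stood at 242, 224 and 235 CPM without and 251, 265 and 286 CPM with tumours, which did not overlap but did not pass the test (0.19 ± 0.175, adjusted p = 0.447). Abcc6, a gene for ATP release that is mutated in ectopic calcification, went from 316 and 322 CPM to 45.1 and 59.8 CPM at 24 h (-2.60 ± 0.173, adjusted p = 0.000358) and 71.5 and 72.4 CPM at 48 h (-2.15 ± 0.17, adjusted p = 0.000291).

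**Figure D3:**
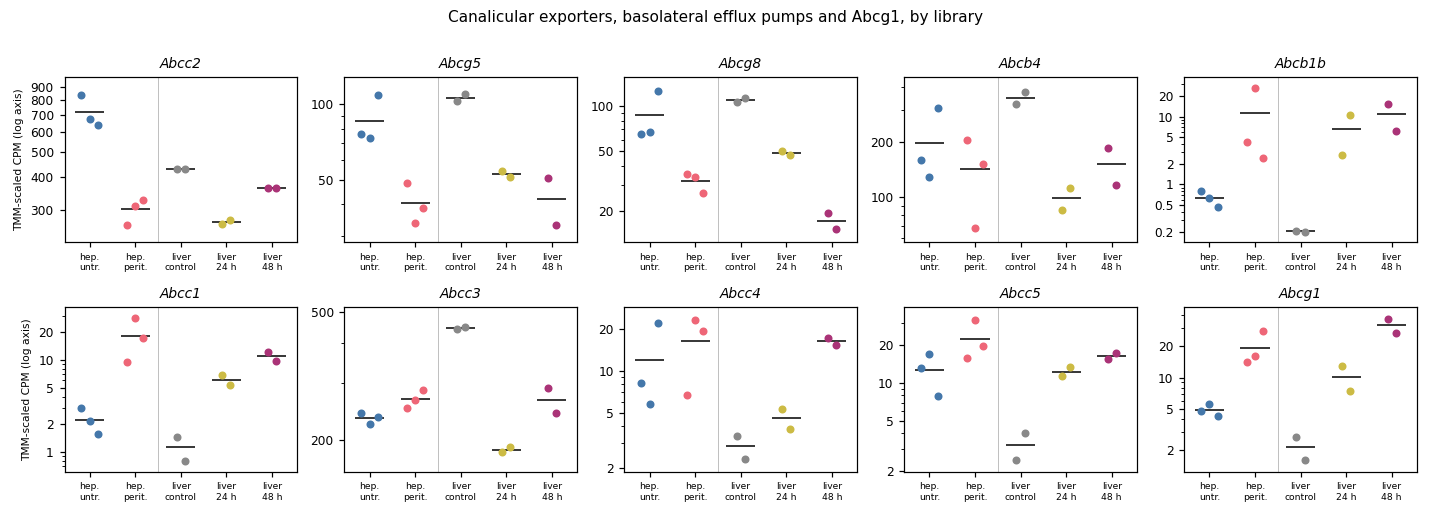
TMM-scaled CPM (log axes) of 5 canalicular genes, 4 basolateral efflux genes and Abcg1 in each library (points) with group means (lines), for untreated (untr.) and peritumoral (perit.) hepatocytes (hep.), control livers and livers 24 h and 48 h after TAA. Abcc1, Abcb1b and Abcg1 lie higher and Abcg5 and Abcg8 lower in every treated library than in the untreated libraries of the same stock, and Abcc4 lies above 15 CPM in both 48 h libraries.

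Among lipid transporters Abcg1 and Abcg3 rose in all 3 settings, and 5 ABCA genes (Abca2, Abca3, Abca6, Abca8a, Abca8b) fell at both TAA times. Of 12 tested ABCA and ABCG genes 3 rose and 5 fell at each TAA time. Among all genes 21.1% were higher and 20.7% lower at 24 h, and 25.1% and 24.0% at 48 h. In 1 fit of all 12 libraries 2 genes of this list fell at 24 h and 1 at 48 h. Limma on log2(RPM + 0.5) did not call the falls of Abca3 at either time or of Abca6 and Abca8b at 48 h. Both Abca3 calls were lost without at least 1 library. Abcg1, which hands cholesterol to high-density lipoprotein and is rich in macrophages, stood at 4.79, 5.51 and 4.24 CPM in untreated and 14.2, 16.1 and 27.9 CPM in peritumoral hepatocytes (2.0 ± 0.312, adjusted p = 0.0077). After TAA it went from 2.68 and 1.60 CPM to 12.9 and 7.42 CPM (2.24 ± 0.389, adjusted p = 0.005) and 36.7 and 26.7 CPM (3.88 ± 0.379, adjusted p = 0.000465). No treated library overlapped its untreated group. Abca1, which loads cholesterol on apolipoprotein A-I, did not pass in any comparison (-0.46, 0.26 and 0.11 in the order peritumoral, 24 h, 48 h) and stayed between 145 and 334 CPM.

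Abca8a went from 285 and 446 CPM in controls to 37.9 and 43.3 CPM at 24 h (-3.17 ± 0.266, adjusted p = 0.00056) and 118 and 89.0 CPM at 48 h (-1.82 ± 0.252, adjusted p = 0.00147). The value at 48 h was 1.35 ± 0.25 above that at 24 h (adjusted p = 0.0295). In peritumoral hepatocytes, where 18.7% of all genes were higher and 9.85% lower, 4 of 12 tested ABCA and ABCG genes rose. These were Abca4 and Abca9 beside Abcg1 and Abcg3, and 0 fell by edgeR (2 at an unadjusted p under 0.05, 0 by DESeq2). Of these rises only that of Abcg1 passed with each library left out: Abcg3 was lost without any 1 untreated library (adjusted p from 0.0553 to 0.0786), Abca9 without untreated replicate 1 (0.0583) and Abca4 without any 1 untreated library or peritumoral replicate 2 (0.0597 to 0.122). The 24 h rise of Abcg3 (1.34 ± 0.423, adjusted p = 0.0412) was lost without any 1 liver library but control replicate 1 (0.056 to 0.15). Abca17 had 1 count over both controls and 34 counts over both 24 h libraries, a ratio of 23.8 with a 95% exact interval from 3.99 to 966 that covers counting error only.

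Markers of other liver cells moved with these rises. In peritumoral hepatocytes 7 of 8 endothelial, 6 of 7 macrophage, 6 of 8 stellate and 5 of 7 tested biliary markers rose. Their summed levels ran from 191 to 252 CPM without and 754 to 1426 CPM with tumours for endothelial markers, from 228 to 291 and 1044 to 2881 CPM for macrophage markers, and from 57.2 to 110 and 640.1 to 1324 CPM for stellate markers. After TAA macrophage sums went from 58.1 and 116 CPM in controls to 244 and 314 CPM at 24 h and 520.3 and 753 CPM at 48 h, and stellate sums from 102 and 165 CPM to 384 and 424 CPM and to 984 and 1464 CPM. The 7 lymphocyte and neutrophil markers summed to 1.49 to 2.90 CPM in untreated and 10.3 to 26.5 CPM in peritumoral hepatocytes, and to 0.10 and 0.412 CPM in control livers and 2.39 to 5.80 CPM after TAA. Of these, 2 of 2 tested rose in peritumoral hepatocytes (S100a8, S100a9) and 3 of 3 at each TAA time (with Cd3e), and all 3 were at 0 in both control livers. Their part in the transporter changes was not tested. In bulk RNA fewer cells of a type and less RNA per cell cannot be told apart, and the summed level of 8 hepatocyte markers also was lower after TAA, at 97610 to 143900 CPM against 236800 and 245300 CPM in controls. Alb made up most of that sum, and of the 8 markers 5 fell at each time, while Fgb rose at 24 h (0.86).

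2 further members, Abcc9 and Slco3a1, rose in all 3 settings. Abcc9, the regulatory subunit of a potassium channel of pericytes and smooth muscle, stood at 7.49, 7.66 and 6.75 CPM in untreated and 45.8, 46.4 and 87.1 CPM in peritumoral hepatocytes (3.03 ± 0.299, adjusted p = 0.00373). In livers it went from 16.3 and 9.01 CPM to 27.1 and 32.1 CPM (1.23 ± 0.32, adjusted p = 0.0218) and 55.4 and 34.9 CPM (1.84 ± 0.321, adjusted p = 0.00376). The groups did not overlap in any of the 3 settings, and its 24 h call was lost without either 24 h library or control replicate 2 (adjusted p from 0.0659 to 0.0944). Slco3a1, a widely expressed organic anion carrier, rose in the 3 settings as well, by 2.85 ± 0.391 (adjusted p = 0.00576), 1.81 ± 0.421 (adjusted p = 0.0146) and 2.23 ± 0.417 (adjusted p = 0.00487). Its 24 h call was lost without 24 h replicate 1 or control replicate 2 (adjusted p from 0.074 to 0.0766). Slco2a1, the prostaglandin carrier, did not pass anywhere (-0.61, -0.29 and -0.22).

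Neighbouring organic anion carriers on chromosome 19 differed among themselves. Slc22a26 (chr19:7781041-7802667) and Slc22a27 (chr19:7864388-7966027) lie beside Slc22a28, Slc22a29 and Slc22a30 on the minus strand of GRCm38, and these similar genes may share reads. In untreated hepatocytes Slc22a26 stood at 0.173, 0.058 and 0.235 CPM, and in peritumoral hepatocytes at 2.42, 129 and 152 CPM. Peritumoral replicate 2 held Xist, as did both control livers, and any part of sex in these values was not tested. The 2 hepatocyte groups did not overlap for Slc22a26. The log2 change was 9.24 ± 1.76 (adjusted p = 0.0127), and it was lost without untreated replicate 1 or 2 (adjusted p from 0.0584 to 0.0615). Slc22a27 had 0 counts in the untreated libraries and 1.27, 7.12 and 9.81 CPM in peritumoral ones, at least 95.7-fold higher against a floor of 3 counts over the untreated group (adjusted p = 0.015).

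In control livers both genes were abundant, and after TAA both fell. The 24 h call of Slc22a26 was lost in 1 fit of all 12 libraries. Slc22a26 went from 480.2 and 456 CPM to 28.2 and 31.2 CPM at 24 h (-3.98 ± 0.41, adjusted p = 0.000867) and 19.4 and 7.60 CPM at 48 h (-5.12 ± 0.436, adjusted p = 0.000332). Slc22a27 went from 54.5 and 39.9 CPM to 4.70 and 5.43 CPM (-3.22 ± 0.369, adjusted p = 0.00118) and 9.97 and 4.40 CPM (-2.73 ± 0.358, adjusted p = 0.00123). Slc22a30 fell from 189 and 193 CPM to between 31.9 and 49.5 CPM (-2.47 ± 0.176 and -2.13 ± 0.173) and did not pass in peritumoral hepatocytes (-0.92 ± 0.696, adjusted p = 0.358), where replicate 2 had the lowest value, 13.2 CPM. Slc22a28 was higher in untreated hepatocytes (4.44, 4.47 and 14.3 CPM) than in control livers (0.721 and 1.1 CPM) on scales set separately. In peritumoral replicates 1, 2 and 3 it stood at 12.6, 0.455 and 2.25 CPM, and it did not pass in any of the 3 comparisons. Slc22a5, the carnitine carrier, fell by 1.23 ± 0.225 at 24 h (adjusted p = 0.00606) and by 0.84 ± 0.222 at 48 h (adjusted p = 0.0185), the second call being lost without 48 h replicate 2 or control replicate 2 (adjusted p from 0.0736 to 0.109). Limma on log2(RPM + 0.5) called neither (-0.68 and -0.12). Slc22a23, an orphan carrier, fell in peritumoral hepatocytes by 0.90 ± 0.211 (adjusted p = 0.0228), from 132 to 148 CPM down to 55.9 to 91.1 CPM, a call lost without untreated replicate 1 or 2 (adjusted p from 0.0838 to 0.108). Slc22a17, a relative of the organic cation carriers, rose from 0.346, 0.348 and 0.55 CPM to 6.11, 21.3 and 3.40 CPM (4.63 ± 0.81, adjusted p = 0.0103), lost without untreated replicate 2 (adjusted p = 0.0534).

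**Figure D4:**
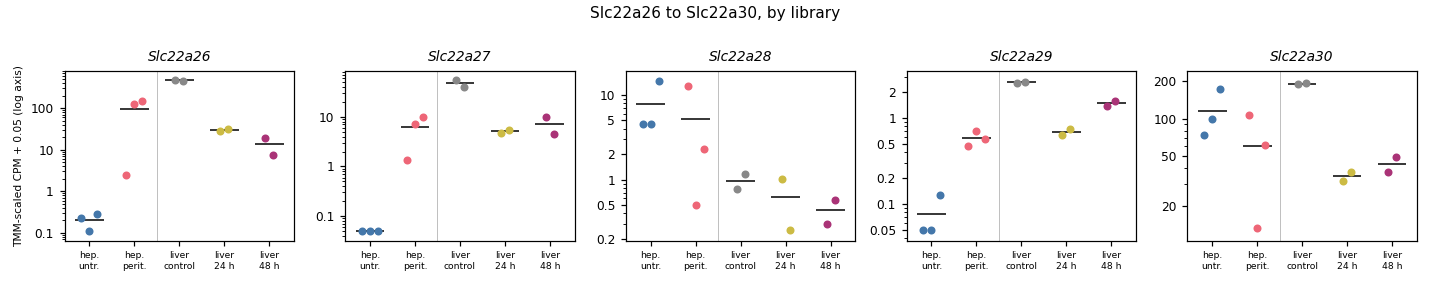
TMM-scaled CPM + 0.05 (log axes) of Slc22a26 to Slc22a30 in each library (points) with group means (lines), for untreated (untr.) and peritumoral (perit.) hepatocytes (hep.), control livers and livers 24 h and 48 h after TAA. Slc22a26 and Slc22a27 lie near the bottom in untreated hepatocytes and at the top in control livers, with all 3 peritumoral and all 4 TAA libraries between.

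Of 4 tested other SLC10 genes, Slc10a2 and Slc10a5 differed between the 2 TAA times. Slc10a2, the apical carrier of ileum and bile ducts, stood at 13.0 and 16.2 CPM in controls, 29.9 and 30.4 CPM at 24 h and 9.56 and 10.7 CPM at 48 h. It rose at 24 h (1.05 ± 0.157, adjusted p = 0.00292) and was lower at 48 h than in controls (-0.52 ± 0.163, adjusted p = 0.0341). The 48 h direction turns with the scaling (0.18 on log2(RPM + 0.5)), and its call was lost without any 1 of 5 liver libraries, all but control replicate 1 (adjusted p from 0.0501 to 0.154). The 24 h call was lost in 1 fit of all 12 libraries (adjusted p = 0.157). The drop between the times was -1.57 ± 0.158 (adjusted p = 0.00939). Slc10a5, an orphan relative, fell from 87.1 and 115 CPM to 13.6 and 17.7 CPM at 24 h (-2.69 ± 0.225, adjusted p = 0.00056) and stood at 47.9 and 36.4 CPM at 48 h (-1.26 ± 0.212, adjusted p = 0.00324).

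Over the tested genes of the family the share of calls in hepatocytes was near that of all genes. Of 59 tested members 13 were higher and 6 lower in peritumoral hepatocytes (32.2% of 59), where 28.5% of all 13442 genes were called. The background was 18.7% higher and 9.85% lower, and 29 members had groups that did not overlap, against 49.5% of all genes. The median log2 change was -0.15, beside -0.02 for all genes tested. The count of calls fell to 6 higher and 1 lower when untreated replicate 1 was left out, and to 6 and 2 when replicate 2 of that group was. Leaving out the third untreated library gave 9 and 7, and leaving out peritumoral replicate 2 gave 12 and 5. Of the 13 higher members 5 (Abcc1, Abcc9, Abcg1, Slc22a27, Slco3a1) and of the 6 lower members 1 (Abcg8) passed with every library left out in turn.

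After TAA the family leaned down. At 24 h 10 of 59 tested members were higher and 28 lower, where 41.7% of all 13497 genes were called, 21.1% higher and 20.7% lower. At 48 h 11 were higher and 27 lower, where 49.0% were called, 25.1% higher and 24.0% lower. The groups of 50 and 53 members did not overlap, against 74.1% and 76.4% of all genes. The median log2 change of the members was -0.68 at 24 h and -0.67 at 48 h. The 2 times share their controls. In 1 fit of all 12 libraries 8 members were higher and 20 lower at 24 h and 11 were higher and 15 lower at 48 h. The 48 h falls of Abca8a, Slc10a5 and Slc22a30 were among those that did not pass in that fit.

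This lean depends on the scaling. TMM factors were 0.750 and 0.758 in controls, 1.06 and 1.09 at 24 h and 1.21 and 1.26 at 48 h. On the deposited RPM values, log2(RPM + 0.5), the median of all genes was 0.37 at 24 h and 0.52 at 48 h, and limma called 18 members higher and 22 lower at 24 h, and 23 higher and 15 lower at 48 h. In hepatocytes the median was 0.21 on that scale, with 14 members higher and 3 lower. Of the members named above, Slc10a1, Slco1b2, Slco2b1, Abcb11, Abcc6, Abcg8, Slc22a26 and Slc22a27 were called lower at both TAA times on that scale too. So were Slc47a1, Slc22a30, Abca2 and Abca8a.

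**Figure D5:**
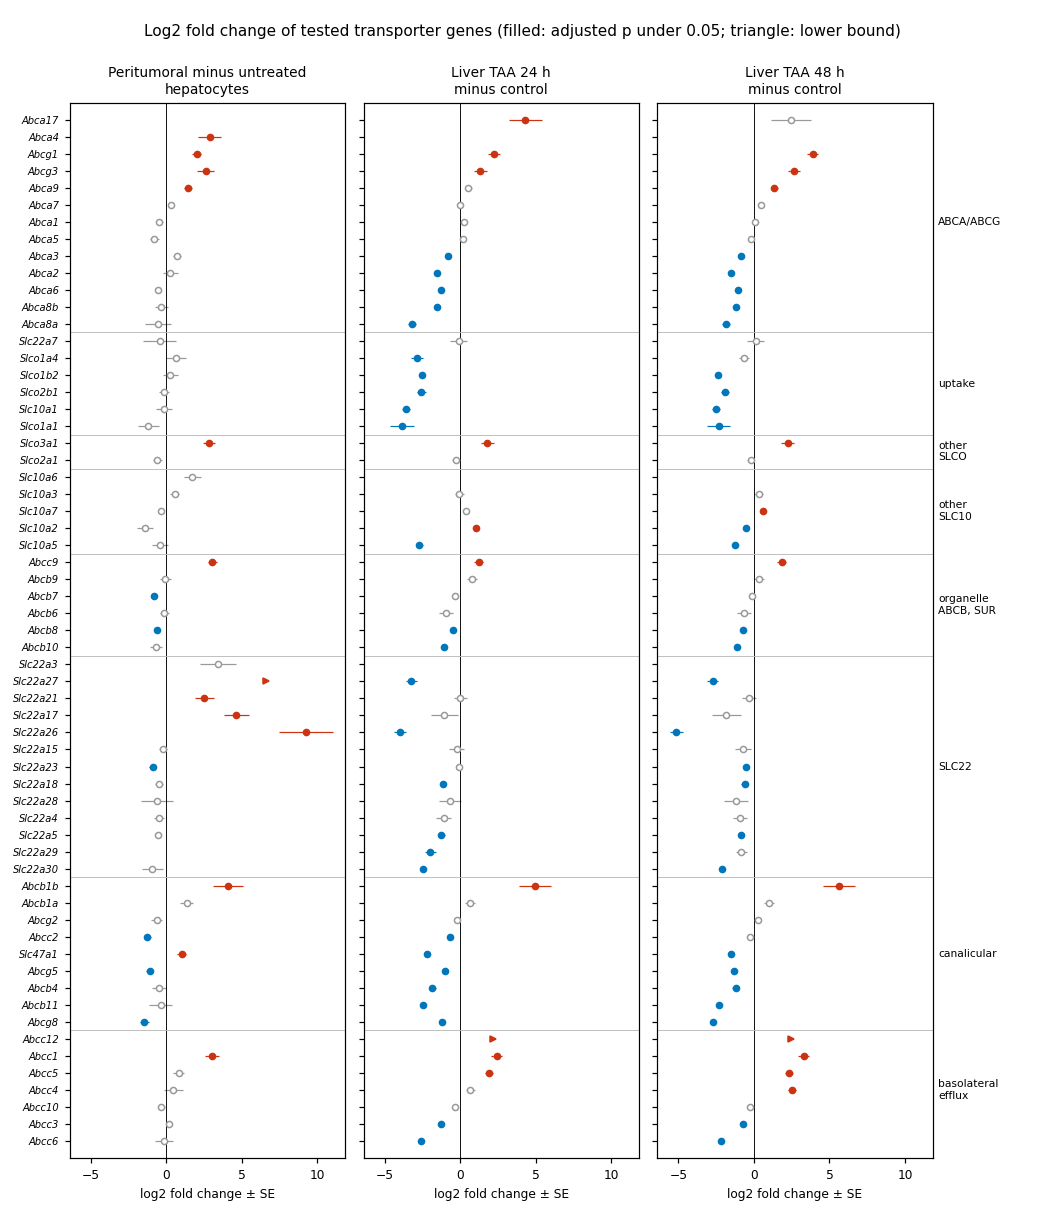
Log2 fold change (± SE, linear axis) of the tested transporter genes reported here, by role, for peritumoral minus untreated hepatocytes and for livers 24 h and 48 h after TAA minus control; filled points passed edgeR's test (red higher, blue lower) and triangles are lower bounds for genes with 0 counts in the untreated group. The uptake genes that passed after TAA sit left of 0, Slc22a7 lies near 0 at both times (-0.09 and 0.13), and no uptake gene passed in peritumoral hepatocytes, where Slco1a1 lies lowest (-1.21).

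The change between 24 h and 48 h was tested directly. Of 59 members 5 were higher (Abca8a, Abcc4, Abcg1, Slc10a5, Slco1a4) and 3 lower (Abcg8 and Slc10a2 among them) at 48 h than at 24 h, where 7.55% of all genes were called (5.02% higher, 2.53% lower), and the groups of 40 members did not overlap (61.9% of all genes). Without either 24 h library 0 members passed edgeR's test, and limma on log2(RPM + 0.1) called 0 in either direction. DESeq2 called 11 higher and 4 lower. In 1 fit of all 12 libraries 0 were higher and 1 lower.

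The peritumoral and the TAA changes, each against its own untreated group, were compared in 1 fit of all 12 libraries with 64 tested members. The 2 settings differ in stock, sex transcripts, preparation and agent, which cannot be told apart. Against 24 h 14 members had a higher and 2 a lower change in peritumoral hepatocytes, where 20.8% of all 14615 genes were called (8.87% higher, 11.9% lower). Against 48 h 10 had a higher and 5 a lower change, where 14.6% were called (6.40% higher, 8.16% lower). Slc22a27, Slc22a29 and Slc47a1 (higher) and Abcc12 (lower) kept their calls against 24 h with each library left out. Against 48 h Slc22a26 and Slc22a27 (higher) and Abcc12 (lower) were among those that did. Some of these fits leave 1 library in a liver group. Abcc12 had 0 counts in control livers, and Slc22a27 and Slc22a29 had 0 and 1 in untreated hepatocytes, so their sizes are not given.

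Of the 7 uptake genes, 5 had a higher change in peritumoral hepatocytes than at 24 h, among them Slc10a1 (difference of log2 changes 3.35 ± 0.727, adjusted p = 0.0151), Slco1b2 (2.71 ± 0.621, adjusted p = 0.0178), Slco1a4 (3.34 ± 0.926, adjusted p = 0.0318) and Slco2b1 (2.33 ± 0.541, adjusted p = 0.0186). Against 48 h 2 uptake genes passed, Slco1b2 among them (2.59 ± 0.62, adjusted p = 0.0268). Each of the calls given here was lost without at least 1 library (adjusted p from 0.0537 to 0.126). That of Slco1a4 was also lost by limma on log2(RPM + 0.5) (adjusted p = 0.1). Without 24 h replicate 1 only 3 members kept a higher and 1 a lower change against 24 h. Abcc2 had a lower change in peritumoral hepatocytes than at 48 h (-1.09 ± 0.289, adjusted p = 0.0365), and so had Abcg1 (-1.96 ± 0.541, adjusted p = 0.0403). Both calls were lost without any 1 of 9 libraries (adjusted p from 0.0501 to 0.151).

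Of 18 listed regulators of these genes 13 fell at 24 h and 16 fell at 48 h, where 20.7% and 24.0% of all genes were lower. At 24 h Foxa2, a factor that opens liver chromatin, fell by 1.91 ± 0.188 (adjusted p = 0.000758), Cebpa, a hepatocyte differentiation factor, by 1.1 ± 0.132 (adjusted p = 0.00135) and Nr0b2 (SHP), an inhibitor that FXR induces, by 1.29 ± 0.158 (adjusted p = 0.00143). At 48 h Nr0b2 fell by 2.11 ± 0.163 (adjusted p = 0.000278), Cebpa by 1.48 ± 0.133 (adjusted p = 0.000387) and the xenobiotic receptor Nr1i3 by 2.74 ± 0.307 (adjusted p = 0.000718). In peritumoral hepatocytes 1 of 18 rose, Nfe2l2 (0.54 ± 0.155, adjusted p = 0.041), and 1 fell, the bile acid synthesis factor Nr5a2 (-0.52 ± 0.145, adjusted p = 0.0376), where 18.7% of all genes were higher and 9.85% lower.

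Of 18 partners in bile formation (enzymes of bile acid synthesis and conjugation, flippases, scaffolds) 1 rose and 7 fell at each TAA time, where 20.7% of all genes were lower at 24 h and 24.0% at 48 h. Baat, which joins bile acids to taurine, fell by 2.05 ± 0.137 at 24 h (adjusted p = 0.000363) and by 2.57 ± 0.14 at 48 h (adjusted p = 0.00013). Slc27a5, which activates bile acids, fell by 2.74 ± 0.227 (adjusted p = 0.000548) and by 2.75 ± 0.227 (adjusted p = 0.000312), and Cyp27a1, a side chain hydroxylase, by 2.44 ± 0.223 (adjusted p = 0.000632) and by 3.93 ± 0.24 (adjusted p = 0.000152). In peritumoral hepatocytes 4 of 18 fell, where 9.85% of all genes were lower. Of these, Pdzk1, a scaffold protein of transporters, fell by 1.06 ± 0.217 (adjusted p = 0.0157), Ephx1 by 1.08 ± 0.24 (adjusted p = 0.0197) and the copper pump Atp7b by 1.23 ± 0.288 (adjusted p = 0.0232).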

How the data were processed

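The authors deposited raw counts per gene for 41128 genes, the input of every main test, and RPM values for 17311 genes, per the file headers. 100% of the RPM values gave whole counts (tolerance 1e-06 counts) that equal the count table, and the test on the deposited counts is the main test. The tools STAR and DESeq2 and the build names mm10 and GRCm38 stand in the submitters' processing notes. The sources used here do not name the strand setting of the counting. Overlapping, antisense and near-identical genes may therefore share reads. Abcb6 shares 55.2% of its exon bases with another gene on its strand.

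The count test was edgeR's two-sided quasi-likelihood F test (edgeR 4.0.16, R 4.3.3) after filterByExpr (minimum count 10) and TMM scaling, with p-values adjusted by Benjamini-Hochberg and hepatocytes and livers in separate fits and all 12 libraries in 1 fit for differences between settings. Of the 71 members 12 did not pass the count filter in hepatocytes and 12 in livers, 9 of them in both. Script steps were tested on simulated data. Alternatives were RLE factors, no count filter, a filter of 50, DESeq2 1.42.0, a joint fit of all libraries, a replicate block, each library left out, and limma 3.58.1 with a pseudocount of 0.5 or 0.1 added to the RPM values before log2. Positions and exon lengths came from GENCODE M21 (GRCm38). Named genes were 26 chosen members plus up to 4 called members per direction and comparison with the smallest p, and up to 3 per regulator or partner list. 1 member is not reported here by name and is not drawn singly, but stays in counts and sums. A few further members were named after their values were seen. The members, roles and lists were chosen with earlier results of these data known. Replicates of every group differed by more than sampling noise.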

Additional observations from a re-analysis of the deposited data

Results flagged for a closer look

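The effect of TAA at 48 h differed from that at 24 h for 7 members described here, by edgeR's quasi-likelihood test (Benjamini-Hochberg adjusted). The effects share their controls, so the difference equals that between the 2 treated groups. Slco1a4 (2.19 on the log2 scale), Abcc4 (1.86), Abcg1 (1.64), Slc10a5 (1.43) and Abca8a (1.35) were higher at 48 h. Slc10a2 (-1.57) and Abcg8 (-1.50) were lower at 48 h. All 7 calls were lost without either 24 h library, where the 24 h group then rests on 1 library assumed to vary like the other groups.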

How the results depend on the processing

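Leaving out each library in turn gave, for members higher and lower, 6 to 13 and 1 to 9 in peritumoral hepatocytes, 5 to 9 and 23 to 29 at 24 h, 10 to 12 and 21 to 26 at 48 h, 0 to 7 and 0 to 3 between the times, 3 to 20 and 1 to 6 for peritumoral minus 24 h, and 3 to 15 and 1 to 6 for peritumoral minus 48 h. Limma on log2(RPM + 0.5) called 3 lower in peritumoral hepatocytes, 18 higher at 24 h, 23 higher and 15 lower at 48 h, 3 higher between the times, 5 lower for peritumoral minus 24 h and 8 lower for peritumoral minus 48 h. On log2(RPM + 0.1) it called 19 higher at 24 h, 25 higher and 15 lower at 48 h, 0 and 0 between the times, 4 lower for peritumoral minus 24 h and 8 lower for peritumoral minus 48 h. All 12 libraries in 1 fit gave 12 lower in peritumoral hepatocytes, 15 lower at 48 h, and 0 higher and 1 lower between the times. DESeq2 gave 11 higher between the times, 4 lower for peritumoral minus 24 h and 16 higher for peritumoral minus 48 h. No count filter gave 10 higher between the times and 3 lower for peritumoral minus 48 h, and a filter of 50 counts gave 1 and 3 lower for the 2 differences of settings. With the replicate number as a block, 13 members were higher and 5 lower in peritumoral hepatocytes, and 3 had a lower change for peritumoral minus 48 h. The Slco1a4 difference for peritumoral minus 24 h had an adjusted p of 0.0613 with this block. Deviations of same-numbered libraries from their group means correlated at -0.23, 0.16 and 0.10 in hepatocytes and at -0.03 to 0.02 in livers. With 3 or 2 libraries per group these deviations depend on one another, so they cannot decide whether the numbers mark pairs. The cause of these moves was not tested.

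Directions turned for members near 0. On log2(RPM + 0.5) and log2(RPM + 0.1) the log2 changes were 0.10 and 0.10 for Abcb11, 0.10 and 0.10 for Abcc6 and 0.0900 and 0.0901 for Slc10a1 in peritumoral hepatocytes. At 24 h they were 0.30 and 0.31 for Abcg2, 0.44 and 0.45 for Slc22a7 (0.0295 with all libraries in 1 fit) and 0.20 and 0.20 for Slco2a1. At 48 h they were 0.47 and 0.47 for Abcc2, 0.18 and 0.19 for Slc10a2 and 0.47 and 0.47 for Slco2a1. Abca1 between the times gave 0.047 and 0.047. For peritumoral minus 48 h they were -0.26 and -0.20 for Abcb1a, -0.19 and -0.19 for Abcg5 and -0.20 and -0.20 for Slc22a5.

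With 1 library left out, changes in peritumoral hepatocytes ran from -0.75 to 0.77 for Abcb11, -0.79 to 0.56 for Abcc6, -0.48 to 0.42 for Slc10a1, -1.78 to 0.49 for Slc22a7, -0.27 to 1.07 for Slco1a4, -0.0147 to 0.90 for Slco1b2 and -0.40 to 0.21 for Slco2b1. Slc22a7 ran from -0.37 to 0.24 at 24 h, -1.15 to 0.81 at 48 h and -1.07 to 0.90 between the times, and Slco2a1 from -0.49 to 0.0120 at 48 h and -0.20 to 0.34 between the times. Abcb1b between the times ran from -0.11 to 1.94. For peritumoral minus 24 h the ranges were -0.0417 to 1.09 for Abcb1a, -2.77 to 0.24 for Abcb1b, -0.0056 to 0.91 for Abcc1, -0.64 to 0.43 for Abcc4, -0.72 to 0.0885 for Abcg1 and -1.76 to 0.45 for Slc22a7. For peritumoral minus 48 h they were -0.36 to 0.77 for Abcb1a, -0.82 to 0.0694 for Abcc1, -0.0941 to 0.53 for Abcg5, -0.0192 to 0.49 for Slc22a5 and -1.96 to 0.64 for Slc22a7. Depth limits the members that are low in the untreated groups, and a member at 0 counts in a group has only a lower bound for its fold.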
